A study of Mus musculus with 48 samples.

Results

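The 65-79*PE peptide was added to IFN-γ in cultures of RAW264.7, an established mouse macrophage-like cell line, and compared with IFN-γ alone. The comparison rests on the 6 libraries whose columns carry a letter label, 3 with 65-79*PE and IFN-γ and 3 with IFN-γ only, out of 48 RNA-seq samples in the series. 65-79*PE is a synthetic 15-residue peptide covering positions 65 to 79 of the human HLA-DRβ chain of the DRB1*04:02 allele, which belongs to the alleles associated with protection from autoimmune disease. The peptide dose was 100 µg/ml and that of IFN-γ 5 ng/ml, and exposure lasted 72 h with 1 change of medium at 48 h. All groups shared the cell line, the exposure time and the medium change, and the untreated arm received PBS. The reference peptides of the study, 65-79*LE of DRB1*03:01 and 65-79*SE of DRB1*04:01, were given at the same dose with the same IFN-γ (3 letter-labelled libraries each), and 65-79*PE and PBS were each also tested without IFN-γ (3 libraries each). One cell line stands for macrophages here, and the labels do not say whether replicates came from separate cultures. The study describes biological replicates from 2 independent experiments, and if letter replicates share a culture, the p-values measure technical spread only.

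IFN-γ binds its receptor on macrophages and signals through JAK kinases, which leads to the induction of guanylate-binding proteins, Nos2 and, through the transactivator Ciita, the MHC class II genes. MHC class II molecules load peptides with the help of H2-DM and the invariant chain Cd74, and H2-O, made from H2-Oa and H2-Ob, restrains H2-DM. Chemokines such as Ccl5 and Ccl22 recruit T cells, and sialic acid-binding receptors such as Cd33 and Siglec1 act at the macrophage surface.

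The 6 libraries held 21200505 to 24449919 counted reads, and 12720 genes passed the filter on low counts in the fit of the 4 IFN-γ groups. The mean level of the 29 IFN-γ target genes measured, as log2(CPM + 1) with CPM the counts scaled to library size, lay between 5.79 and 6.35 in all 12 letter-labelled libraries with IFN-γ and between 2.62 and 2.87 in the 12 without it. Of 10 macrophage markers, 9 passed the filter on low counts and were tested. Among 7 T cell markers 1 was tested, the list summed to 25.2 to 28.9 CPM, and Cd3e, Cd3g, Cd8a and Trac were at 0 in all 6 libraries. Of 5 dendritic cell markers 3 were tested, the list summed to 3.94 to 7.72 CPM, and Flt3 and Siglech were at 0. All 4 epithelial markers were at 0, and the lists of B cell, neutrophil, fibroblast, endothelial and erythroid markers each summed to at most 1.93 CPM. The 10 macrophage markers summed to 7373, 7863 and 8214 CPM with IFN-γ alone and 7332, 7099 and 7444 CPM with 65-79*PE. Among the 9 tested, Adgre1, Itgam, Lyz2 and Ptprc passed the adjusted p as lower with 65-79*PE (44.4%, against 4.58% of all tested genes). Cd68 passed as higher (11.1%, against 5.43%). Without replicate 1 or replicate 3 of every group 0 of the 9 passed. In bulk RNA, fewer cells of a type and less RNA per cell cannot be told apart.

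65-79*PE added to IFN-γ changed few genes by a large fold. Genes with an adjusted p below 0.05 (Benjamini-Hochberg, edgeR's quasi-likelihood test) and a fold change above 1.5 were called. By this rule 80 of 12720 genes were called (0.629%), 57 higher (0.448%) and 23 lower (0.181%). On the adjusted p alone, 1274 genes passed (10.0%), 691 higher (5.43%) and 583 lower (4.58%), and the 80 called genes were those of the 1274 that also passed the fold minimum. The median log2 fold change over all tested genes was -0.0042. Called genes sat mainly at low levels. The median of their mean level over the 6 libraries was 3.19 CPM for higher and 3.14 CPM for lower genes, against 25.2 CPM for all tested. Below 5 CPM were 34 of the 57 higher and 14 of the 23 lower genes, against 3125 of all 12720. The number of calls depended on which libraries were kept. Without replicate 1 of every group 4 genes were called, without replicate 3 of every group 9 and without replicate 2 of every group 250. Leaving out only IFN-γ replicate 1 gave 24 calls, and leaving out only 65-79*PE + IFN-γ replicate 1, replicate 2 or replicate 3 gave 52, 135 and 18, while leaving out IFN-γ replicate 2 or replicate 3 gave 157 and 129. Angptl2 and Ccl5 were the 2 called genes that passed the adjusted p under all 15 alternatives fitted for them.

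Among secreted signals, the chemokines Ccl5 and Ccl22, the secreted glycoprotein Angptl2, the growth factor Pgf and the iron-sequestering protein Lcn2 were higher with 65-79*PE. Ccl5 measured 7.88, 7.48 and 8.89 CPM with IFN-γ alone and 14.5, 15.1 and 14.8 CPM with 65-79*PE. The groups did not overlap, and the mean level was 1.83 times that of IFN-γ alone (log2 fold change 0.88 ± 0.092, adjusted p = 1.44e-04). Angptl2, a member of the angiopoietin-like family, measured 27.7, 29.5 and 27.8 CPM with IFN-γ alone and 51.2, 45.3 and 49.6 CPM with 65-79*PE. The 3 libraries with IFN-γ alone lay close together, below every library with the peptide (log2 fold change 0.78 ± 0.072, adjusted p = 4.00e-05). Lcn2, lipocalin 2, measured 95.7, 118 and 103 CPM with IFN-γ alone and 148, 161 and 177 CPM with 65-79*PE. Its lowest library with 65-79*PE stood above its highest without the peptide (log2 fold change 0.62 ± 0.093, adjusted p = 0.00234). Ccl22, a ligand of the receptor Ccr4, was near 1 CPM, at 0.764, 0.442 and 0.662 CPM with IFN-γ alone and 1.40, 1.44 and 1.70 CPM with 65-79*PE (log2 fold change 1.28 ± 0.26, adjusted p = 0.0088). Pgf, placental growth factor, measured 0.563, 0.965 and 0.899 CPM with IFN-γ alone and 1.81, 1.60 and 2.14 CPM with 65-79*PE (log2 fold change 1.19 ± 0.23, adjusted p = 0.00713). Both genes were higher in every library with the peptide. Csf3, which encodes the granulocyte colony-stimulating factor, was also called, but on few reads. It had 1 count over the 3 libraries with IFN-γ alone and 23 with 65-79*PE, a ratio of 23.5 with a 95% exact binomial counting interval of 3.82 to 969.

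Across the whole chemokine list, 4 of 15 tested members passed the adjusted p as higher (26.7%, against 5.43% of all tested genes) and 0 as lower, with a median log2 fold change of 0.093. This median was -0.030 without replicate 1 of every group, -0.051 without replicate 2, 0.31 without replicate 3 and -0.025 without IFN-γ replicate 2. Ccl3 and Ccl4, chemoattractants of macrophages and T cells, joined Ccl5 and Ccl22. Ccl4 measured 90.3, 94.1 and 96.1 CPM with IFN-γ alone and 129.5, 136 and 151 CPM with 65-79*PE (log2 fold change 0.57 ± 0.074, adjusted p = 9.75e-04), and Ccl3 rose from 423 ± 44.5 CPM to 577 ± 16.1 CPM (mean ± SD, n = 3; log2 fold change 0.45 ± 0.073, adjusted p = 0.00391). The summed level of the list was 941, 860.3 and 1067 CPM with IFN-γ alone and 1158, 1177 and 1122 CPM with 65-79*PE. Cxcl9 and Cxcl10, ligands of Cxcr3, had log2 fold changes of 0.13 ± 0.21 and 0.093 ± 0.20 with adjusted p = 0.717 and 0.81, and the libraries of both groups overlapped. Ccl7, a ligand of Ccr2, had a log2 fold change of -0.47 ± 0.15 (adjusted p = 0.0573). Under the alternatives 2 to 5 members passed as higher, with Ccl4 and Ccl5 passing in every alternative.

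**Figure D1:**
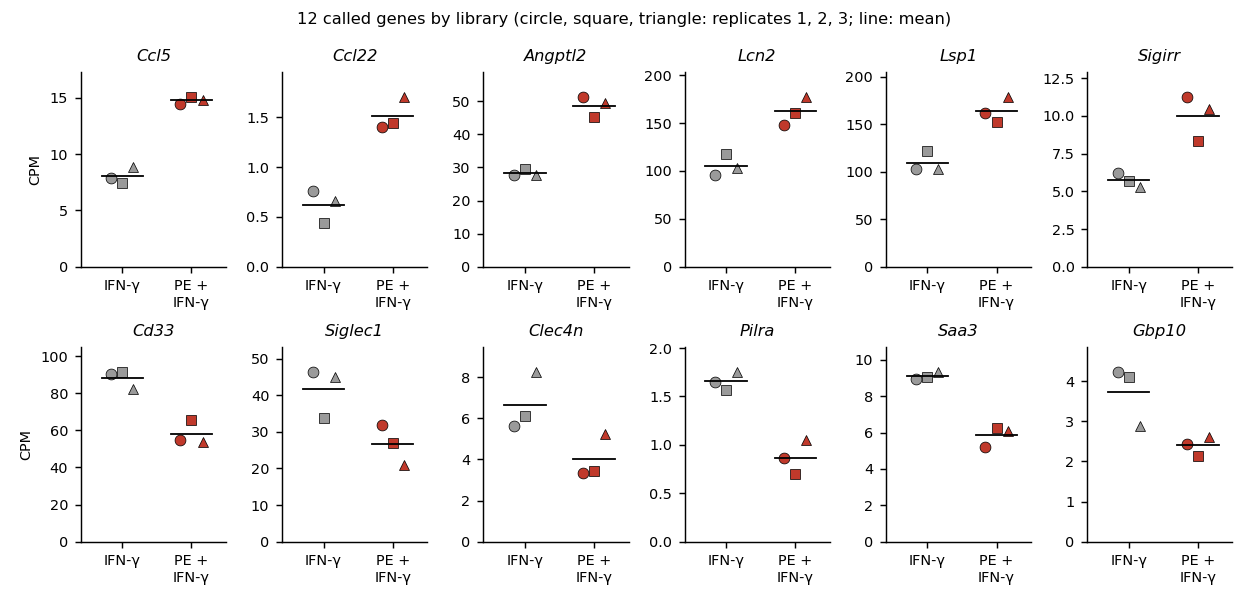
Level in CPM (linear axis from 0) of 12 called genes in each library with IFN-γ alone (grey) and with 65-79*PE and IFN-γ (red). Symbols mark replicates 1, 2 and 3, and the line is the mean of 3 libraries. The upper 6 genes were higher with the peptide and the lower 6 were lower, and the groups do not overlap in any panel.

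Genes of the MHC class II system were among those that rose with 65-79*PE. Of the 10 listed genes, all tested, 5 passed the adjusted p as higher (50%, against 5.43% of all tested genes) and 0 as lower. Of these 10, 9 had a positive change, and the median log2 fold change was 0.34. The summed level was 8209, 7433 and 9034 CPM with IFN-γ alone and 10155, 9636 and 9899 CPM with 65-79*PE, so every library with the peptide stood above every library without it. H2-Aa, the α chain of H2-A, measured 917, 704 and 1045 CPM with IFN-γ alone and 1319.9, 1205 and 1209 CPM with 65-79*PE (log2 fold change 0.49 ± 0.10, adjusted p = 0.0102). H2-Eb1, the β chain of H2-E, measured 1061, 837 and 1169 CPM with IFN-γ alone and 1499, 1402 and 1339 CPM with 65-79*PE (log2 fold change 0.47 ± 0.093, adjusted p = 0.00875). H2-Ab1, the β chain of H2-A, rose from 649 ± 112 CPM to 837 ± 49.3 CPM (mean ± SD, n = 3; log2 fold change 0.37 ± 0.10, adjusted p = 0.0258). In each of the 3 genes the lowest IFN-γ library was replicate 2.

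The H2-O chains were the called members of the list and sat at low levels. H2-Ob measured 0.563, 0.804 and 1.04 CPM with IFN-γ alone and 2.08, 1.27 and 1.92 CPM with 65-79*PE (log2 fold change 1.14 ± 0.29, adjusted p = 0.0209). H2-Oa measured 1.41, 0.724 and 1.84 CPM with IFN-γ alone and 2.35, 2.22 and 3.19 CPM with 65-79*PE (log2 fold change 0.98 ± 0.29, adjusted p = 0.0416). Neither gene's groups overlapped. Cd74, the invariant chain, had a log2 fold change of 0.17 ± 0.055 (adjusted p = 0.0506), and Ciita had -0.046 ± 0.11 (adjusted p = 0.819), with overlapping libraries for Ciita. H2-DMa, H2-DMb1 and H2-DMb2 had log2 fold changes of 0.17 ± 0.079, 0.27 ± 0.11 and 0.31 ± 0.10, none past the adjusted p. Levels without IFN-γ were low, with H2-Aa at 0.172 ± 0.0325 CPM with PBS and 889 ± 172 CPM with IFN-γ, and H2-Eb1 at 0.618 ± 0.308 CPM with PBS and 1022 ± 169.6 CPM with IFN-γ (SD, n = 3). The number of members past the adjusted p was 2 without IFN-γ replicate 1, 3 with an offset for transcript length and 0 without replicate 1 of every group, and H2-Ob and H2-Oa missed the adjusted p in 6 and 9 of the 14 alternatives that kept them. The list's median stayed between 0.22 and 0.48 over the 15 alternatives.

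H2-Aa, H2-Ab1, H2-Eb1 and Cd74 differed between 65-79*PE and both reference peptides, while H2-Ob and H2-Oa passed the adjusted p against 65-79*LE only. In the direct comparison of 65-79*PE + IFN-γ with 65-79*LE + IFN-γ, in which 21.6% of all tested genes were called, H2-Aa was higher with 65-79*PE by 0.93 ± 0.10 on the log2 scale (adjusted p = 5.70e-07), H2-Ab1 by 0.92 ± 0.10 (adjusted p = 3.92e-07), H2-Eb1 by 0.85 ± 0.094 (adjusted p = 6.26e-07) and Cd74 by 0.65 ± 0.055 (adjusted p = 3.02e-08). Against 65-79*SE + IFN-γ, with 7.59% of genes called, the differences were 0.63 ± 0.10 for H2-Aa (adjusted p = 1.31e-04), 0.78 ± 0.10 for H2-Ab1 (adjusted p = 8.95e-06), 0.49 ± 0.093 for H2-Eb1 (adjusted p = 5.33e-04) and 0.48 ± 0.055 for Cd74 (adjusted p = 3.35e-06). Mean H2-Aa levels were 1245 ± 65.1 CPM with 65-79*PE, 889 ± 172 CPM with IFN-γ alone, 807 ± 52.9 CPM with 65-79*SE and 653 ± 59.8 CPM with 65-79*LE (SD, n = 3). Against IFN-γ alone, H2-Aa was lower with 65-79*LE (-0.44 ± 0.10 log2, adjusted p = 0.00141), whereas with 65-79*SE its change of -0.14 ± 0.10 did not pass (adjusted p = 0.319). For H2-Ob the difference from 65-79*LE was 1.38 ± 0.29 (adjusted p = 5.07e-04) and from 65-79*SE 0.68 ± 0.27 (adjusted p = 0.0595), the latter with a 95% interval of 0.11 to 1.25. For H2-Oa it was 0.805 ± 0.284 from 65-79*LE (adjusted p = 0.021) and 0.712 ± 0.284 from 65-79*SE (adjusted p = 0.0607).

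**Figure D2:**
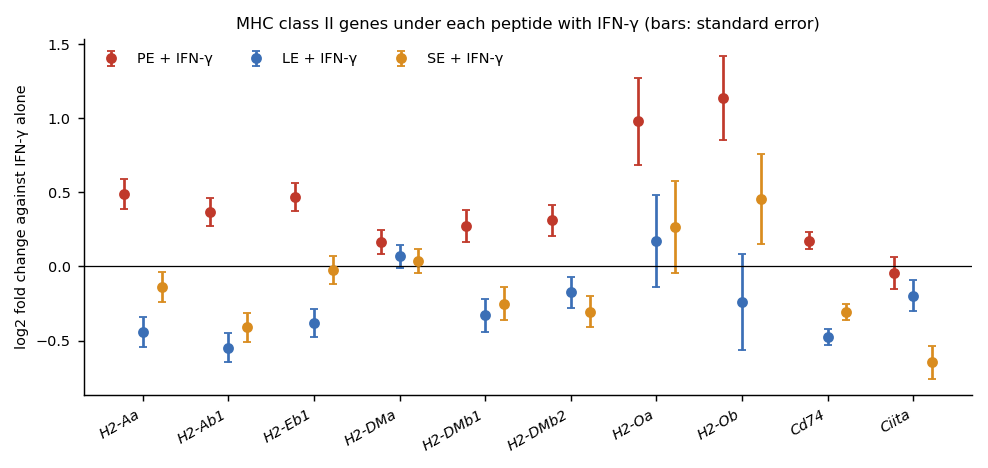
Log2 fold change against IFN-γ alone (vertical axis) of the 10 MHC class II genes (horizontal axis) with 65-79*PE (red), 65-79*LE (blue) and 65-79*SE (orange), each with IFN-γ, and bars for the standard error of the fit over 3 libraries per group. The 3 comparisons share the IFN-γ libraries. Of the red points 9 lie above 0, and those of H2-Ob and H2-Oa are the highest, at 1.14 and 0.98.

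The promoters of 4 of the 5 MHC class II genes that rose are shown because these genes moved together and MHC class II promoters are known to share a conserved Y box, an inverted CCAAT element. The sequences run from 250 bases before to 50 bases after the RefSeq transcript start, on the strand of the gene, in the GRCm38.p6 build, with capitals for each CCAAT match on either strand.
H2-Aa (chr17:34287774-34288073, minus strand): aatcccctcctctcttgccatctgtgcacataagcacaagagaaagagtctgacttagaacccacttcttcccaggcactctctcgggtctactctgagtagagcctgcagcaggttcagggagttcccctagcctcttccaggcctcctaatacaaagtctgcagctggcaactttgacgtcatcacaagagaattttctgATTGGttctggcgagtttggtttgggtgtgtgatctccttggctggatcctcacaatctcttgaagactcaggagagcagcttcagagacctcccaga
H2-Eb1 (chr17:34305617-34305916, plus strand): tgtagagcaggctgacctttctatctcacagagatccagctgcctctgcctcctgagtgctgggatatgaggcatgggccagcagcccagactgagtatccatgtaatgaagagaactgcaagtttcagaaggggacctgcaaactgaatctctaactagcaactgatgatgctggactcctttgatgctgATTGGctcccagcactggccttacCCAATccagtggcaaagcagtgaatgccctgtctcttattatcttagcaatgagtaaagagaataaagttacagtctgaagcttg
H2-Oa (chr17:34092129-34092428, plus strand): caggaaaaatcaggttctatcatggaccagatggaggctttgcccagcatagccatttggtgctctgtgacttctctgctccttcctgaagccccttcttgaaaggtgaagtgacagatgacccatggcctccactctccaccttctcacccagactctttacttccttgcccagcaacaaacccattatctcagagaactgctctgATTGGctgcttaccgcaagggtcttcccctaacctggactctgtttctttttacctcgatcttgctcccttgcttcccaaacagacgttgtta
H2-Ob (chr17:34238655-34238954, plus strand): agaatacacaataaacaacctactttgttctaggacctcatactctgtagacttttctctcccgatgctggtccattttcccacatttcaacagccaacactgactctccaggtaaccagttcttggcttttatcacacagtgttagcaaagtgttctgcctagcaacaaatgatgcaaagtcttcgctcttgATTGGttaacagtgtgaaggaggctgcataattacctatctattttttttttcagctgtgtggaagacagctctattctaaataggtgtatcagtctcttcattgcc

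In these promoters a match began 48 bases before the start in H2-Aa, 59 in H2-Eb1, 43 in H2-Oa and 57 in H2-Ob, and H2-Eb1 had another at 35. A CCAAT match stood in 6 of the 7 MHC class II promoters found and in 39.3% of the 9239 promoters found for all tested genes. Among called genes, 7 of 27 higher and 4 of 16 lower promoters held 1 (25.9% and 25.0%). Other elements rested on counts of 0 to 4 promoters each. The GAS motif TTCNNNGAA was found in 1 of 27 higher (3.7%) and 2 of 16 lower promoters (12.5%) against 6.87% of all. The ISRE motif (GAAA, 2 bases of any kind, GAAA) was in 0 and 3 (0% and 18.8%) against 3.39%. The AP-1 motif TGANTCA was in 1 and 3 (3.7% and 18.8%) against 4.87%, and the NF-κB consensus in 4 and 0 (14.8% and 0%) against 10.2%. Both strands were searched, overlapping matches of different motifs were each counted, and a match describes the letters of the window only.

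Further genes higher with 65-79*PE had varied functions. Lsp1, an actin-binding protein of leukocytes, measured 103, 122 and 103 CPM with IFN-γ alone and 162, 152 and 178 CPM with 65-79*PE (log2 fold change 0.59 ± 0.069, adjusted p = 3.44e-04). Sigirr, a negative regulator of the interleukin-1 and Toll-like receptor family, measured 6.19, 5.67 and 5.30 CPM with IFN-γ alone and 11.2, 8.35 and 10.4 CPM with 65-79*PE (log2 fold change 0.80 ± 0.15, adjusted p = 0.00655). Neither gene's groups overlapped. Sectm1a measured 1.09, 1.17 and 0.709 CPM with IFN-γ alone and 1.81, 1.97 and 1.92 CPM with 65-79*PE (log2 fold change 0.93 ± 0.23, adjusted p = 0.0203), and Epha2, an ephrin receptor tyrosine kinase, measured 1.89, 1.77 and 1.70 CPM with IFN-γ alone and 3.12, 3.21 and 3.93 CPM with 65-79*PE (log2 fold change 0.93 ± 0.18, adjusted p = 0.00713). In both genes the lowest library with the peptide exceeded the highest without it. Spn, the sialoglycoprotein CD43, rose from 9.79 ± 0.764 CPM to 15.6 ± 1.90 CPM (mean ± SD, n = 3; log2 fold change 0.67 ± 0.11, adjusted p = 0.00355), and Etv4, a transcription factor of the ETS family, from 5.10 ± 0.494 CPM to 8.88 ± 0.591 CPM (mean ± SD, n = 3; log2 fold change 0.80 ± 0.13, adjusted p = 0.00361). Prss16, a serine protease, rose from 4.72 ± 0.585 CPM to 8.30 ± 1.10 CPM (mean ± SD, n = 3), and the DNA repair protein Rdm1 from 3.07 ± 0.363 CPM to 5.55 ± 0.321 CPM (mean ± SD, n = 3).

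The remaining higher genes with the largest folds above 1 CPM were mixed in function. Cox4i2, an isoform of cytochrome c oxidase subunit 4, measured 1.21, 0.924 and 0.993 CPM with IFN-γ alone and 2.76, 2.47 and 1.96 CPM with 65-79*PE (log2 fold change 1.20 ± 0.22, adjusted p = 0.0065). The lincRNA A430046D13Rik measured 0.563, 0.643 and 0.615 CPM with IFN-γ alone and 1.49, 1.65 and 1.44 CPM with 65-79*PE (log2 fold change 1.33 ± 0.26, adjusted p = 0.00722). Both separated the groups. The ubiquitin ligase component Asb2 measured 1.09, 0.362 and 1.37 CPM with IFN-γ alone and 2.40, 2.10 and 1.75 CPM with 65-79*PE, the kinesin Kif17 0.965, 0.402 and 0.520 CPM with IFN-γ alone and 1.31, 1.36 and 1.48 CPM with 65-79*PE, and the zinc finger protein Zfp763 1.04, 0.683 and 0.851 CPM with IFN-γ alone and 1.95, 1.85 and 1.40 CPM with 65-79*PE. IFN-γ replicate 2 was the lowest library in each of these 3, and their adjusted p-values were 0.0251, 0.0328 and 0.0192.

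Apart from Csf3, genes called higher had log2 fold changes between 0.59 for Lsp1 and 1.76 for Cd5, a surface receptor of lymphocytes that stayed below 1 CPM in all 6 libraries, and genes called lower between -1.37 for Serpinb12 and -0.60 for Sipa1l2. Other higher genes included Acap1, a GTPase-activating protein (10.8 ± 2.13 CPM to 18.2 ± 1.32 CPM, mean ± SD, n = 3), Ccdc155 (5.88 ± 1.03 CPM to 10.6 ± 1.22 CPM, mean ± SD, n = 3), Dmwd (7.80 ± 1.42 CPM to 14.1 ± 0.994 CPM, mean ± SD, n = 3) and the inhibitor of basic helix-loop-helix factors Id1 (1.89 ± 0.286 CPM to 3.10 ± 0.875 CPM, mean ± SD, n = 3). Hspa1b, an inducible heat shock protein whose near-identical copy Hspa1a may share its reads, rose from 2.30 ± 0.361 CPM to 4.07 ± 0.414 CPM (mean ± SD, n = 3; log2 fold change 0.82 ± 0.22, adjusted p = 0.0302). Under 65-79*SE + IFN-γ it stood at 15.8 ± 3.53 CPM, above the level with 65-79*PE (log2 difference -1.95 ± 0.19, adjusted p = 4.32e-07).

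Processed and other pseudogenes made up 10 of the 57 higher genes (17.5%, against 3.77% of all tested genes), and reads of such copies cannot be told apart safely from those of their parent genes. Summed over the 10, the level was 80.3, 146 and 157 CPM with IFN-γ alone and 193.0, 199 and 224 CPM with 65-79*PE, with IFN-γ replicate 1 the lowest of the 6. Gm2000 and Gm10073, short coding models for which near-identical copies may also divide the reads, were also lowest in IFN-γ replicate 1, with Gm2000 at 7.52, 18.5 and 19.5 CPM with IFN-γ alone and 24.7, 26.5 and 29.1 CPM with 65-79*PE (log2 fold change 0.83 ± 0.24, adjusted p = 0.0349). Without IFN-γ replicate 1 Gm2000 no longer passed.

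The genes lower with 65-79*PE included 4 lectin-type or sialic acid-binding receptors of myeloid cells, a grouping made after the values were seen. No list of such receptors was set, so the share of them that was lower is not known. Of all tested genes 0.181% were called lower. Cd33, a sialic acid-binding receptor, measured 90.5, 91.2 and 82.4 CPM with IFN-γ alone and 54.8, 65.7 and 53.7 CPM with 65-79*PE (log2 fold change -0.60 ± 0.069, adjusted p = 3.40e-04). Siglec1, the sialoadhesin of macrophages, measured 46.3, 33.6 and 45.1 CPM with IFN-γ alone and 32.0, 27.0 and 21.0 CPM with 65-79*PE (log2 fold change -0.64 ± 0.14, adjusted p = 0.0109). The lowest IFN-γ library of each gene lay above the highest library with the peptide. Clec4n, the C-type lectin Dectin-2, measured 5.63, 6.11 and 8.23 CPM with IFN-γ alone and 3.35, 3.41 and 5.24 CPM with 65-79*PE (log2 fold change -0.73 ± 0.17, adjusted p = 0.0158), and Pilra, a paired inhibitory receptor, measured 1.65, 1.57 and 1.75 CPM with IFN-γ alone and 0.860, 0.699 and 1.05 CPM with 65-79*PE (log2 fold change -0.93 ± 0.23, adjusted p = 0.0205). Neither overlapped between groups.

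Saa3, an acute-phase protein made by macrophages, measured 8.96, 9.04 and 9.32 CPM with IFN-γ alone and 5.21, 6.25 and 6.11 CPM with 65-79*PE (log2 fold change -0.63 ± 0.11, adjusted p = 0.0043). Pgap1, which remodels GPI anchors, measured 25.2, 20.5 and 21.6 CPM with IFN-γ alone and 14.7, 15.1 and 14.1 CPM with 65-79*PE (log2 fold change -0.62 ± 0.09, adjusted p = 0.00234). Both separated the groups. Gbp10, a guanylate-binding protein, measured 4.22, 4.10 and 2.89 CPM with IFN-γ alone and 2.45, 2.14 and 2.62 CPM with 65-79*PE (log2 fold change -0.65 ± 0.17, adjusted p = 0.0264), and Arid5b, a chromatin-binding regulator, measured 14.1, 11.4 and 9.55 CPM with IFN-γ alone and 7.83, 8.68 and 4.54 CPM with 65-79*PE (log2 fold change -0.74 ± 0.19, adjusted p = 0.023). For Gbp10 the nearest libraries were 2.89 CPM with IFN-γ and 2.62 CPM with the peptide. Gda, guanine deaminase, fell from 10.0 ± 0.378 CPM to 6.57 ± 0.479 CPM (mean ± SD, n = 3; log2 fold change -0.61 ± 0.12, adjusted p = 0.00818). Cc2d2a and Rpgrip1l, both proteins of the ciliary transition zone, fell from 6.17 ± 0.931 CPM to 4.06 ± 0.298 CPM (mean ± SD, n = 3) and from 4.23 ± 0.651 CPM to 2.70 ± 0.380 CPM (mean ± SD, n = 3; adjusted p = 0.0183 and 0.0493).

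Further lower genes had levels below 7 CPM. F830045P16Rik measured 2.29, 1.65 and 1.75 CPM with IFN-γ alone and 0.679, 1.23 and 0.567 CPM with 65-79*PE (log2 fold change -1.18 ± 0.27, adjusted p = 0.0154), and 9930111J21Rik1, which has a close paralog that may share its reads, measured 3.26, 3.70 and 3.22 CPM with IFN-γ alone and 2.31, 2.39 and 1.44 CPM with 65-79*PE (log2 fold change -0.73 ± 0.19, adjusted p = 0.0252). The groups of both genes stood apart. Cpeb1, a cytoplasmic polyadenylation factor, measured 3.30, 3.74 and 3.41 CPM with IFN-γ alone and 1.54, 2.43 and 2.14 CPM with 65-79*PE, and Eml6, a microtubule-associated protein, 4.30, 3.98 and 3.36 CPM with IFN-γ alone and 2.22, 3.00 and 2.01 CPM with 65-79*PE (adjusted p = 0.0259 and 0.0332). The lincRNA Gm42743 measured 4.98, 2.41 and 4.40 CPM with IFN-γ alone and 2.40, 2.02 and 2.27 CPM with 65-79*PE (adjusted p = 0.0346). The antisense genes Dnmt3aos and Gm4673 measured 5.31, 3.22 and 6.29 CPM with IFN-γ alone and 3.62, 2.59 and 2.23 CPM with 65-79*PE, and 1.73, 1.21 and 2.03 CPM with IFN-γ alone and 1.09, 0.658 and 0.916 CPM with 65-79*PE (adjusted p = 0.0313 and 0.0474). The libraries were stranded, but whether counting used the strand is not given in the sources used here, so antisense reads may belong to the partner gene. Dnmt3aos and Serpinb12 were the called lower genes whose groups overlapped, and all 57 higher and 21 of the 23 lower genes did not, against 26.9% of all tested genes.

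Among 29 IFN-γ targets tested, 0 passed as higher and 4 as lower (13.8%, against 4.58% of all tested genes), with a median log2 fold change of -0.046. The guanylate-binding protein Gbp2 fell from 146 ± 11.7 CPM to 122 ± 3.77 CPM (mean ± SD, n = 3; log2 fold change -0.27 ± 0.075, adjusted p = 0.0347), Gbp3 from 37.4 ± 1.96 CPM to 28.4 ± 1.29 CPM (mean ± SD, n = 3; log2 fold change -0.40 ± 0.086, adjusted p = 0.0118) and Gbp4 from 112 ± 6.72 CPM to 85.2 ± 4.04 CPM (mean ± SD, n = 3; log2 fold change -0.40 ± 0.087, adjusted p = 0.0123). Nos2, the inducible nitric oxide synthase, measured 316, 265.1 and 315 CPM with IFN-γ alone and 269.9, 239 and 232 CPM with 65-79*PE, with overlapping groups (log2 fold change -0.27 ± 0.08, adjusted p = 0.0369). With the peptides compared directly, Gbp2 was lower with 65-79*PE than with 65-79*LE, with a log2 difference of -1.73 ± 0.076 (adjusted p = 4.35e-11), and than with 65-79*SE, with a difference of -1.29 ± 0.075 (adjusted p = 2.18e-09). Gbp4 differed by -1.62 ± 0.087 from 65-79*LE (adjusted p = 2.38e-10) and by -0.87 ± 0.087 from 65-79*SE (adjusted p = 8.06e-07). The summed level of the list was 3471, 3685 and 3529 CPM with IFN-γ alone and 3439, 3393 and 3481 CPM with 65-79*PE. The number of targets lower ranged from 0, without replicate 1 or replicate 3 of every group, to 7.

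A list of genes taken from the text of the paper, partly chosen there on these samples, was also read. It held 16 genes, and 4 of them passed the adjusted p (25%, against 10.0% of all tested genes). Ccl5 and Traf1 passed as higher and Ifi44 and Nos2 as lower. Traf1, an adaptor of TNF receptors, measured 10.5, 11.2 and 11.4 CPM with IFN-γ alone and 17.7, 14.5 and 15.3 CPM with 65-79*PE (log2 fold change 0.52 ± 0.10, adjusted p = 0.00713). Ifi44, an interferon-induced gene, measured 131, 122 and 126 CPM with IFN-γ alone and 102, 113 and 97.7 CPM with 65-79*PE (log2 fold change -0.27 ± 0.061, adjusted p = 0.0131). The other 12 did not pass, with Irf4 at -0.20 ± 0.15, Pim1 at 0.11 ± 0.089, Tnf at 0.17 ± 0.078, Irf7 at -0.13 ± 0.088, Ddit3 at 0.12 ± 0.061 and Tnfrsf9 at 0.58 ± 0.20 on the log2 scale. The paper names Irf4 and Pim1 among the genes that 65-79*LE raised most significantly in these cells. Their direction against 65-79*LE was thus in part set by that choice, and its p-value is no independent support. In the direct comparisons Irf4 was lower with 65-79*PE than with 65-79*LE, with a log2 difference of -2.48 ± 0.13 (adjusted p = 1.33e-10), and than with 65-79*SE, with a difference of -1.93 ± 0.13 (adjusted p = 8.06e-09). For Pim1 these differences were -1.87 ± 0.084 (adjusted p = 4.41e-11) and -1.74 ± 0.084 (adjusted p = 2.50e-10).

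Part of the sterol genes fell. Of 29 genes of cholesterol and fatty acid synthesis, 7 passed as lower (24.1%, against 4.58% of all tested genes) and 1, Acat2, as higher, with a median log2 fold change of -0.15. Scd2, a fatty acid desaturase, measured 432, 421 and 391 CPM with IFN-γ alone and 324, 347 and 329.7 CPM with 65-79*PE (log2 fold change -0.31 ± 0.064, adjusted p = 0.00984). The groups did not overlap. Hmgcs1, Sqle, Insig1 and Stard4 also passed as lower. The reduction of Scd2 was smaller than that with 65-79*LE, from which 65-79*PE differed by 1.28 ± 0.066 on the log2 scale (adjusted p = 1.40e-10). Over the alternatives 0 to 10 members were lower, with 1 without IFN-γ replicate 1 and 4 with the length offset. The offset also moved the median to -0.037 and the number of positive members from 4 to 11, while the median of all tested genes went from -0.0042 to 0.025.

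Ribosomal protein genes rose together by small amounts, as did some nuclear genes of the respiratory chain. Of 78 cytosolic ribosomal protein genes tested, 63 passed as higher (80.8%, against 5.43% of all tested genes), 0 as lower and none were called. All 78 had a positive change, with a median log2 fold change of 0.26. Their summed level was 63992, 67676 and 71195 CPM with IFN-γ alone and 76574, 79083 and 85866 CPM with 65-79*PE. Rpl36 rose from 434 ± 15.4 CPM to 583 ± 39.5 CPM (mean ± SD, n = 3; log2 fold change 0.43 ± 0.067, adjusted p = 0.00353) and Rps16 from 509 ± 27.4 CPM to 641 ± 49.3 CPM (mean ± SD, n = 3; log2 fold change 0.33 ± 0.059, adjusted p = 0.00531). Among the 39 nuclear genes of the respiratory chain 10 passed as higher (25.6%, against 5.43% of all tested genes) and 0 as lower (median 0.16). Uqcrq (0.34 ± 0.059) and Cox6a1 (0.29 ± 0.055) led them. The ribosomal count was 7 without IFN-γ replicate 1, 20 with the length offset and 0 without replicate 1 or replicate 3 of every group, and the respiratory count was 2, 2 and 0 under the same settings. With the offset the medians were 0.15 and 0.060.

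Further lists are read against the 10.0% of all tested genes past the adjusted p, 5.43% as higher and 4.58% as lower. Among 23 glycolysis and hypoxia genes, 8 passed as higher (34.8%), led by Mif (0.31 ± 0.061) and Aldoa (0.23 ± 0.047), with a median of 0.035. Of 27 DNA replication genes, 5 passed as higher (18.5%), led by the chromatin assembly subunits Chaf1b (0.34 ± 0.074) and Chaf1a (0.27 ± 0.059), with a median of 0.14. Among 18 p53 targets, 4 passed as higher (22.2%), Cdkn1a (0.27 ± 0.055), Bax (0.27 ± 0.062), Bbc3 (0.24 ± 0.053) and Gdf15 (0.33 ± 0.075), which are a cell cycle inhibitor, 2 apoptosis effectors and a stress cytokine. Of 21 ER chaperone genes 4 passed as lower (19.0%), led by Canx (-0.25 ± 0.061) and Sel1l (-0.26 ± 0.064). With the length offset 1 ER chaperone gene passed as lower, and Canx and Sel1l did not pass. Under the same offset 5 glycolysis and hypoxia genes, 5 DNA replication genes and 2 p53 targets passed as higher. Among 21 NRF2 targets the ferritin chains Ftl1 (0.32 ± 0.061) and Fth1 (0.33 ± 0.063) passed as higher and the reductase Txnrd1 (-0.23 ± 0.065) as lower (14.3% in all). Of 18 osteoclast genes, Dcstamp, which acts in cell fusion, passed as higher (0.57 ± 0.083) and Traf6 as lower (-0.32 ± 0.081), 11.1% in all. Of 25 mitosis genes 0 passed, 2 had a positive change and the median was -0.20. Without replicate 2 of every group 16 of the 25 mitosis genes passed as lower, and their summed level was 1795, 1256 and 1865 CPM with IFN-γ alone and 1574, 1456 and 1298 CPM with 65-79*PE, with IFN-γ replicate 2 the lowest of the 6. The mitosis median was -0.012 without replicate 3 of every group.

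The remaining lists had shares between 0% and 16.7% past the adjusted p. Among 30 TLR and NF-κB targets Traf1, Ebi3 (0.34 ± 0.074) and Tnip1 (0.19 ± 0.052) were higher and Tnfaip2 (-0.17 ± 0.051) lower (13.3% in all). Of 29 type I interferon targets Ifi27l2a (0.58 ± 0.13) and Bst2 (0.23 ± 0.054) were higher and Ifi44 lower (10.3% in all). Among 12 chemoattractant receptors C5ar1 (0.26 ± 0.078) was higher and Ccr1 (-0.40 ± 0.11) lower, and among 24 lysosomal genes Tfeb (0.30 ± 0.073) and Ctsa (0.21 ± 0.058) were higher and Ctsc (-0.34 ± 0.083) and Npc1 (-0.25 ± 0.063) lower (16.7% of each list). No member passed among 11 LXR targets, 25 ATF4 and CHOP targets, 25 immediate-early genes, 9 alternative activation genes, 11 histone genes, 4 nuclear long non-coding RNAs and 7 mitochondrially encoded respiratory genes. The LXR target Abca1, a cholesterol exporter, had the largest change among these at -0.80 ± 0.27 (adjusted p = 0.0612). Of the 20 lists refitted under every alternative, 17 had a member past the adjusted p. Without replicate 1 of every group only the chemokines of these 17 had one, and without replicate 3 only the chemokine, MHC class II and osteoclast lists. Without 65-79*PE + IFN-γ replicate 3, 7 of the 17 had one, and without IFN-γ replicate 1, 12.

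**Figure D3:**
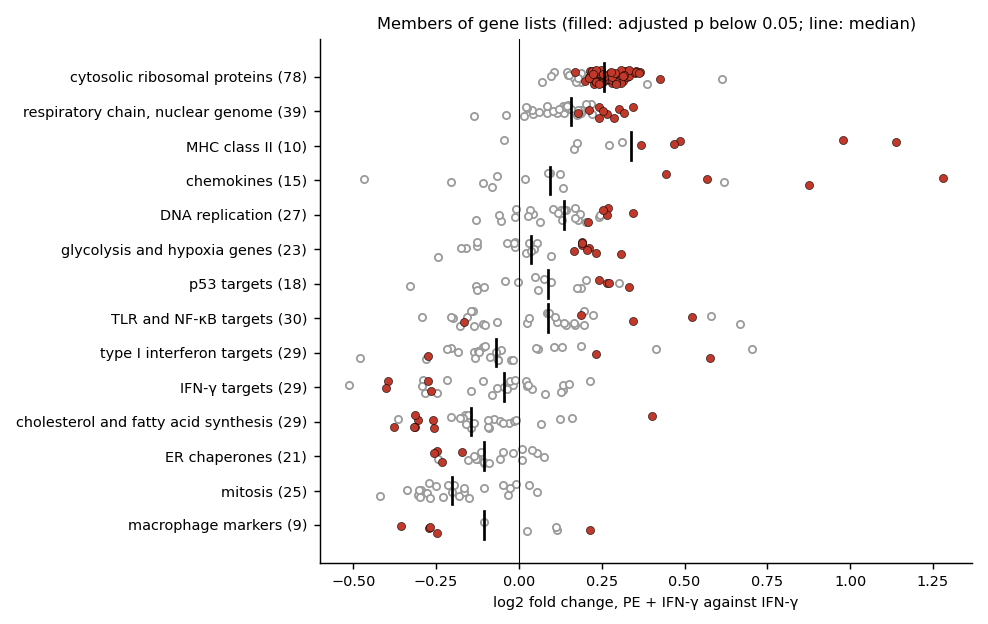
Log2 fold change of 65-79*PE + IFN-γ against IFN-γ alone (horizontal axis) for the members of 14 gene lists (rows, with the number of genes tested). Filled points passed the adjusted p, open points did not, and the line is the median. The ribosomal protein genes cluster around 0.26, while the MHC class II and chemokine lists hold the largest changes.

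Changes varied with transcript length. Across the 12559 genes with a length, the log2 fold change had a Spearman correlation of -0.41 with the longest annotated transcript length, a description across genes that are not independent replicates. The median change went from 0.18 in the shortest length class (10 classes of equal size, median length 788 bases) to -0.16 in the longest (median length 7927 bases). Genes called higher had a median length of 1692 bases and genes called lower 3660 bases, against 3158 bases for all tested genes. For 65-79*LE + IFN-γ against IFN-γ the correlation was 0.22 and for 65-79*SE + IFN-γ it was -0.052, and these comparisons share the IFN-γ libraries. With an offset that removed the length trend from each library, 50 genes were called, 44 of them among the 80, and 55 of the 80 still passed the adjusted p. The part of transcript length in the results was not tested beyond this offset. The log2 fold change also had a Spearman correlation of 0.37 with the GC percent of the longest annotated transcript. Median GC was 54.7% in genes called higher, 47.5% in genes called lower and 49.7% in all tested genes. No offset for GC was fitted.

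**Figure D4:**
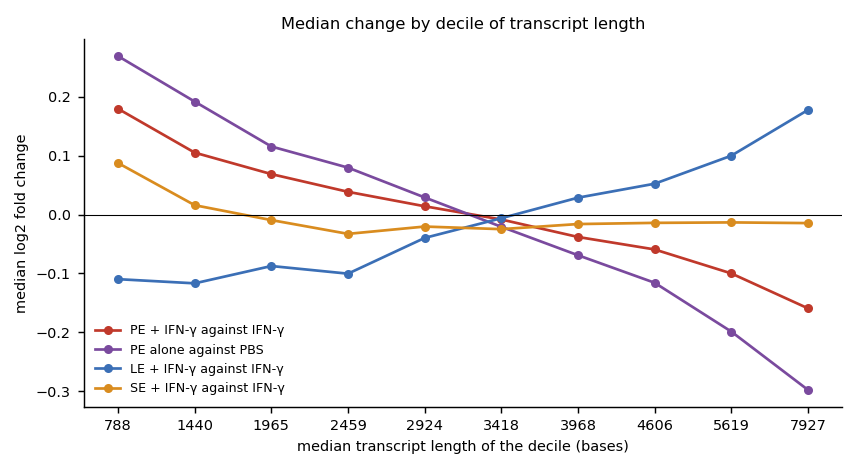
Median log2 fold change (vertical axis) in 10 equal classes of the tested genes ordered by transcript length (horizontal axis, median length in bases) for 4 comparisons. With 65-79*PE the medians fall from 0.18 to -0.16 with IFN-γ and from 0.27 to -0.30 without it.

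Against IFN-γ alone, 51 of the 57 higher genes were also higher with 65-79*SE and 43 with 65-79*LE. Of the 23 lower genes, 9 and 7 were also lower. Of all tested genes, 60.4% and 44.0% changed in the same direction as with 65-79*PE. The shared IFN-γ libraries in part set these counts. Several called genes differed between the peptides in the direct comparisons, which share the 65-79*PE + IFN-γ libraries with the main one. Ccl5 was lower with 65-79*PE than with 65-79*LE, with a log2 difference of -1.09 ± 0.081 (adjusted p = 7.03e-09), and than with 65-79*SE, with a difference of -2.47 ± 0.08 (adjusted p = 8.71e-13). The paper names Ccl5 among the genes raised by 65-79*LE, so its direction against that peptide was in part set by that choice. Mean Ccl5 levels with 65-79*PE, 65-79*LE and 65-79*SE were 14.8, 31.5 and 81.8 CPM. Pgf followed the same order, at 1.85 ± 0.269, 9.55 ± 0.416 and 18.4 ± 2.54 CPM (SD, n = 3). Both genes were thus lowest with 65-79*PE among the 3 peptides. Lsp1, in contrast, was higher with 65-79*PE than with 65-79*LE by 0.84 ± 0.069 (adjusted p = 2.07e-08) and than with 65-79*SE by 0.46 ± 0.068 (adjusted p = 6.02e-05). Sigirr was higher by 1.34 ± 0.15 and 1.04 ± 0.15 (adjusted p = 1.01e-06 and 4.39e-05), and Etv4 by 0.98 ± 0.13 and 0.58 ± 0.13 (adjusted p = 4.58e-06 and 0.00166).

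Among the lowered genes, Siglec1 had mean levels of 26.7 ± 5.48 CPM with 65-79*PE, 91.9 ± 10.8 CPM with 65-79*LE and 69.9 ± 7.22 CPM with 65-79*SE (SD, n = 3). It was thus lower with 65-79*PE than with either reference peptide, with log2 differences of -1.79 ± 0.13 and -1.39 ± 0.13 (adjusted p = 7.68e-09 and 4.95e-07). Clec4n was lower than with 65-79*LE and 65-79*SE, with differences of -1.26 ± 0.16 and -1.26 ± 0.16 (adjusted p = 3.69e-06 and 1.38e-05), and Gda differed by -2.74 ± 0.11 and -1.67 ± 0.11 (adjusted p = 3.03e-11 and 7.60e-09). Saa3 was lower than with 65-79*LE and 65-79*SE, with differences of -0.56 ± 0.11 and -0.97 ± 0.10 (adjusted p = 1.95e-04 and 1.81e-06). Cd33 did not follow this pattern. It was lower with 65-79*PE than with 65-79*LE, with a difference of -0.64 ± 0.069 (adjusted p = 4.10e-07), but its difference from 65-79*SE of 0.10 ± 0.07 did not pass (adjusted p = 0.296), with a 95% interval of -0.049 to 0.25. Lcn2 and Angptl2 likewise showed no difference from 65-79*SE past the threshold, at -0.14 ± 0.092 and -0.059 ± 0.07 (adjusted p = 0.266 and 0.538), with 95% intervals of -0.33 to 0.056 and -0.20 to 0.087.

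Without IFN-γ the same peptide against PBS, in libraries that share none with the main comparison, called 389 of 12420 genes (3.13%), 81 higher and 308 lower. This count was 0 without replicate 1 of every group, 1021 without replicate 2, 60 without replicate 3 and, with the length offset, 161 (108 higher and 53 lower). Of the 80 genes called with IFN-γ, 73 were tested there, and 60 changed in the same direction (82.2%, against 75.7% of all 12163 genes tested in both). With the length offset in both fits 52 of the 73 did (71.2%, against 70.8% of all). All 22 lowered genes tested were also lower without IFN-γ, against 38 of 51 of the higher genes. These counts by direction were not taken with the length offset or for all tested genes. The 22 include Siglec1, at -0.039 ± 0.18. Without IFN-γ, 7 of the 73 passed the same rule, the higher genes Lamb2, Mustn1 and Vamp5 and the lower genes Cd33, Cc2d2a, Gda and Pgap1. Cd33 fell from 146 ± 20.6 CPM with PBS to 88.5 ± 12.6 CPM with 65-79*PE (SD, n = 3; log2 fold change -0.73 ± 0.11, adjusted p = 0.00501). Lamb2, a laminin chain, had a log2 fold change of 1.06 ± 0.21 without IFN-γ (adjusted p = 0.00734) and 0.81 ± 0.17 with it (adjusted p = 0.0102). Siglec1 measured 25.3 ± 2.96 CPM with PBS and 25.0 ± 6.66 CPM with 65-79*PE (log2 fold change -0.039 ± 0.18, adjusted p = 0.902).

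Across the 12163 genes the effects of 65-79*PE with and without IFN-γ had a Pearson correlation of 0.48 and a Spearman correlation of 0.60, and with the length offset in both fits the values were 0.38 and 0.50. Effects without IFN-γ also varied with transcript length (Spearman -0.50). In that comparison 73 of 78 ribosomal protein genes and 28 of 39 respiratory chain genes passed as higher, and 8 of 29 sterol and fatty acid genes as lower, where 9.98% of all tested genes passed in each direction. The test of the difference between the effects, the interaction of 65-79*PE and IFN-γ in edgeR's quasi-likelihood fit, called 0 of 13096 genes. An unadjusted p below 0.05 was seen for 1073 genes, the smallest adjusted p was 0.422, and DESeq2 also called 0. The interaction estimates for Siglec1 and Angptl2 were -0.62 ± 0.25 and 0.61 ± 0.24 on the log2 scale (adjusted p = 0.578 and 0.578).

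**Figure D5:**
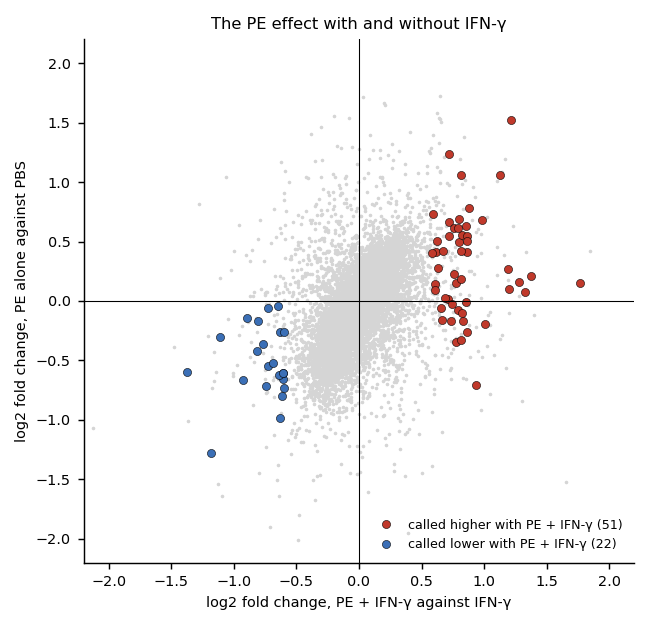
Log2 fold change of each gene with 65-79*PE and IFN-γ against IFN-γ (horizontal axis) and with 65-79*PE against PBS (vertical axis). Red and blue points are the 51 higher and 22 lower called genes with a value in both, grey points are the other genes, and 5 genes beyond 2.2 on either axis, 1 of them called, are not drawn. All blue points lie below 0 on both axes.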

How the data were processed

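RNA from RAW264.7 cultures was made into stranded poly(A) libraries and sequenced as 100-base single-end reads. The authors counted uniquely aligned reads per gene with featureCounts against GENCODE M12 (build GRCm38.p5 per the labels), and the deposited table holds these raw counts with gene symbols. The aligner is not given in the sources used here. Columns were matched to samples by their labels, and only letter-labelled libraries were used. Counts were tested with edgeR 4.0.16 (R 4.3.3), with TMM scaling, filterByExpr and the quasi-likelihood F test, in 1 fit of the 4 IFN-γ groups. PE against PBS was fitted on the 4 IFN-γ-free groups, its interaction with IFN-γ on all 8. Genes were called at an adjusted p below 0.05 (Benjamini-Hochberg, all tested genes) and a fold change over 1.5. Levels are CPM on TMM-scaled library sizes. Errors of log2 fold changes are standard errors (the absolute value divided by the square root of F). Values by library were given for the 12 genes per direction with the largest fold at a mean of at least 1 CPM, and the text also names called genes, the study's 16 genes, list members with the lowest p and members past the adjusted p. The gene lists, the named genes and the comparison were chosen with earlier results of these data known. Date-like (26) and repeated names were not named. Lengths and coordinates came from GENCODE M21 (GRCm38) and promoters from RefSeq (GRCm38.p6, matched for 9239 of 12720 genes). Alternatives were DESeq2 1.42.0, DESeq2 size factors, no filter, a replicate block, a 2-group fit, a length offset and leaving out libraries. A few genes are not reported here.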

Additional observations from a re-analysis of the deposited data

How the results depend on the processing

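The number of genes called for 65-79*PE + IFN-γ against IFN-γ alone (80) depended on which libraries were kept. It was 4 without replicate 1 of every group, 250 without replicate 2 and 9 without replicate 3. Leaving out 1 PE+IFNy library gave 52, 135 and 18 (replicates 1, 2 and 3), and leaving out 1 IFNy library gave 24, 157 and 129. The range was thus 18 to 157 with 1 library left out, and 4 to 250 with a replicate of every group left out. DESeq2 gave an adjusted p for only 36 of the 80 called genes, and 29 of these passed. DESeq2 called 31 genes (28 shared), edgeR with no filter on low counts 152, a fit of the 2 groups alone 22, a length offset 50 and no fold minimum 1274. The cause was not tested. Angptl2 and Ccl5 stayed past the adjusted p in all 15 alternatives, and none of the called genes changed direction in those that gave it a value. For PE against PBS (389), leaving out replicates 1, 2 and 3 gave 0, 1021 and 60 calls, and a length offset chosen after seeing the data gave 161. The interaction of 65-79*PE with IFN-γ (0 calls) gave 61 with no filter and 0 to 1 with a replicate left out. Counts against 65-79*LE (2138 to 3028) and 65-79*SE (706 to 1244) stayed within 1.5 times their main values.

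Replicate numbers did not clearly pair the libraries of the 2 groups. Over 9024 genes, libraries with the same number had correlations of 0.35, -0.068 and 0.15, and those with different numbers -0.59 to 0.39. A fit with a replicate block called 111 genes in the main comparison (78 shared), and 62 when a length offset was added.

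Among the genes not past the adjusted p, Hspa5 (log2 fold change -0.019) turned to 0.032 with a length offset and 0.033 with the block added. With 1 replicate or library left out, 6 such genes spanned 0 on the log2 scale, Irf4 from -0.41 to 0.029, Cxcl10 from -0.040 to 0.21, Il1b from -0.048 to 1.74, Tnfaip3 from -0.090 to 0.10, Irf7 from -0.25 to 0.028 and Hspa5 from -0.090 to 0.043.

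In the HLA-labelled libraries the mean IFN-γ target level was low in those labelled IFNy (2.46 to 2.50 as log2(CPM + 1)) and high in those labelled PE without IFN-γ (6.20 to 6.34), against their labels. Those labelled PE+IFNy were at 5.86 to 5.93. For PE+IFNy against IFNy, a fit of both label series called 1 gene, and 0 were shared with the main comparison. The HLA-labelled libraries alone called 1890 genes, 35 of them shared. By their labels, they set libraries with high IFN-γ target levels against libraries with low ones. An effect of the peptide therefore cannot be read from these counts. The cause of the mismatch with the labels was not tested.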
